A study of Homo sapiens with 21 samples.

Results

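FOXA1 binding and histone H3 acetylated at lysine 27 (H3K27ac) were compared across the genome of estradiol-deprived CAMA1 cells, from the peak lists of 2 FOXA1 and 2 H3K27ac chromatin immunoprecipitation sequencing (ChIP-seq) libraries. These are 4 of the study's 21 samples, 14 of which had a peak list. The members were taken by target and by chromosome (1 to 22 and X). A reproducible region, called a region from here on, is the merged stretch of peaks of both lists of a target that overlap by at least 1 bp. This gave 104200 FOXA1 regions and 93699 H3K27ac regions, 197899 in all.

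The study mapped FGFR1, H3K27ac, H3K4me3, serine-5-phosphorylated RNA polymerase II (Pol II S5P) and FOXA1 in these cells, and FGFR1 again after a FOXA1 knockdown. CAMA1 is an established breast cancer line described in the labels as ER+ and FGFR1-amplified, used here at a passage number under 10. The FOXA1 group was precipitated with an antibody named anti-HNF-3α (Q6) and the H3K27ac group with the antibody ab4729. Both groups came from untransfected cells grown for 48 h in medium lacking estradiol, so both share the deprivation, and no library with estradiol was analysed here. Peak names inside the FOXA1 lists read FOXA2, a related factor of the same family, and the labels, which say FOXA1, were followed. Whether the 2 libraries of a target came from separate cultures is not stated, so the spread between them may be technical. A ChIP library is made from many cells, so FOXA1 and H3K27ac on the same chromosome copy cannot be told apart from FOXA1 and H3K27ac in different cells.

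FOXA1 (also named HNF-3α) is a forkhead transcription factor and a pioneer factor: it can bind its site on DNA that is still wrapped in nucleosomes and make the chromatin accessible to other factors. In luminal breast epithelium it prepares sites for the oestrogen receptor, encoded by ESR1, and acts beside GATA3. H3K27ac is written by the acetyltransferases p300 and CBP (EP300 and CREBBP) and marks active promoters and active enhancers.

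The FOXA1 lists held 123582 and 127427 peaks, with median widths of 322 and 326 bp. The H3K27ac lists held 154358 and 145991 peaks, with median widths of 467 and 463 bp and single peaks of up to 78977 and 85661 bp. The lists hold no read totals. The background against which peaks were called, recovered from the deposited fold enrichments, stands for depth and was 3.79 and 4.33 fragments per position for FOXA1 and 3.18 and 3.13 for H3K27ac. Each FOXA1 list shared 85.2% and 82.3% of its peaks with the other, and each H3K27ac list 72.3% and 80.4%. Of the genes taken as markers, 10 of 10 luminal ones carried H3K27ac within 1 kb of a gene end, against 67.5% of all protein-coding genes. So did 1 of 4 basal (TP63), 3 of 4 mesenchymal (ZEB1, TWIST1 and CDH2) and 1 of 4 haematopoietic markers (SPI1). The basal keratins KRT5, KRT14 and KRT17, VIM, PTPRC and CD3E had none.

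The sequences under FOXA1 at a few promoters show what the lists call a site. Each line below gives the part of a RefSeq promoter (build GRCh38.p14, whose primary assembly is that of hg38) within 75 bp of the mean FOXA1 summit, printed on the gene's strand, with a match to a forkhead string in capitals. Among the stretches taken at named genes, only those of FOXA1 and FTO carry such a match. RBM15 and H2AC7 are printed as examples of FOXA1 peaks without one. The stretches at BCAR3, VAV3, RHOB, CD14, H3C10, RPS3, KDM4B and RPL18, not printed, held no match to the strings searched either.
FOXA1, chr14:37595405-37595499, minus strand: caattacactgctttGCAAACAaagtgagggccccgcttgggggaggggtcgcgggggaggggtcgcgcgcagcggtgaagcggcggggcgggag
FTO, chr16:53703906-53704019, plus strand: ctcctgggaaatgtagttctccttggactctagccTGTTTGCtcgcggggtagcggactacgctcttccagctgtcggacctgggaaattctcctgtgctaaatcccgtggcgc
RBM15, chr1:110339127-110339262, plus strand: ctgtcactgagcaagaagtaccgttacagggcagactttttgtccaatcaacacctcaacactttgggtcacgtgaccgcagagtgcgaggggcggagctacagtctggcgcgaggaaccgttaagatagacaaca
H2AC7, chr6:26199355-26199505, minus strand: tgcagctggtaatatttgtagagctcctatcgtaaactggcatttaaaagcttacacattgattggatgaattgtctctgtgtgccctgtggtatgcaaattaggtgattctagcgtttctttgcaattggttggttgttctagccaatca

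At the promoter of FOXA1 itself the summits of the 2 FOXA1 lists lay 13 bp apart, on average 231 bp before the annotated start. The FOXA1 fold enrichment there was 14.8 and 15.7, and that of the H3K27ac region around it 44.8 and 51.1. The stretch of FTO, the gene of an RNA demethylase, had summits 2 bp apart, with 9.81 and 10.9 for FOXA1 and 14.6 and 13.3 for H3K27ac. It crosses the left end of FTO as annotated, since RefSeq's promoter entry uses a start further inside. RBM15, which encodes an RNA-binding protein of the RNA methylation machinery, had 15.6 and 13.5 for FOXA1 and 70.7 and 74.5 for H3K27ac. The histone H2A gene H2AC7 had 23.8 and 24.4 for FOXA1 and 52.0 and 56.1 for H3K27ac, more FOXA1 enrichment than the FOXA1 and FTO promoters although its stretch held none of the strings searched.

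The forkhead strings searched were TGTTTAC, its variant with a G near the end, TGTTTGC, and its variant with an A near the start, TATTTAC. Both strands were searched, over the 300 bp from 250 bp before to 50 bp after each of 15811 gene starts. The variant with both changes, TATTTGC, was not searched, and the RPS3 stretch held it on the other strand. At least 1 of the 3 strings searched was found in 13% of the 3007 promoters that carried FOXA1 and H3K27ac (Wilson 95% interval 11.8 to 14.2). The share was 30.1% of the 83 promoters with FOXA1 and no H3K27ac (21.3 to 40.7), 3.19% of the 7202 with H3K27ac and no FOXA1 (2.81 to 3.63), 9.87% of the 5519 with neither and 7.53% of all promoters. Base composition moved with these classes: the mean share of G and C was 62.1%, 45.3%, 66.9%, 54.0% and 61.4% in the same order, and its part in the difference was not tested. The string TGTTTAC alone was in 5.99% of promoters with both, 13.3% with FOXA1 alone and 0.611% with H3K27ac alone. Strings of other factors were also commonest with FOXA1 alone and rarest with H3K27ac alone. Unlike the 3 forkhead strings counted as one, each was rarer in promoters with both than in those with neither. Taken singly, the forkhead strings differed: TGTTTAC was in 5.99% of promoters with both and 3.24% with neither. TGTTTGC was in 4.39% and 4.0%, and TATTTAC in 2.96% and 3.01%. AGGTCA, part of the response element of the oestrogen receptor and other nuclear receptors, was in 10.2% of promoters with both, 18.1% with FOXA1 alone and 9.01% with H3K27ac alone, against 15.9% with neither and 11.7% of all promoters. The GATA factor string AGATAA was in 4.96%, 22.9% and 3.67% of the same classes, against 13.8% with neither and 7.55% of all promoters. The string TGANTCA of AP-1 factors was in 5.02%, 15.7% and 3.46%, against 9.01% with neither and 5.76% of all promoters.

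The share of each set under the other was the first question. Of the FOXA1 regions, 52512 (50.4%, Wilson 95% interval 50.1 to 50.7) overlapped an H3K27ac region, and 51688 did not. Of the H3K27ac regions, 43610 (46.5%, 46.2 to 46.9) overlapped a FOXA1 region, and 50089 did not. These intervals, like the others given here, cover counting error only. Between single lists, 46.8% to 49.1% of FOXA1 peaks and 33.9% to 35.3% of H3K27ac peaks overlapped the other over the 4 pairings. The share of FOXA1 was thus alike in both counts, while that of H3K27ac was lower among single peaks than among regions. Which of the 2 shares was higher depended on the processing: with peaks of a -log10 q of at least 5 they were 46.1% of FOXA1 and 54.5% of H3K27ac, and their order also turned with lists of equal length and without either FOXA1 list.

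The overlap was uneven in bases. FOXA1 regions covered 47.9 Mb and H3K27ac regions 168 Mb, with 24.3 Mb in common, which is 50.8% of the FOXA1 bases and 14.5% of the H3K27ac bases. An H3K27ac region wholly contained 34.2% of FOXA1 regions and covered at least 50% of the length of 43.4% of them. Regions just past the limit of 1 bp were few: 8.39% of the FOXA1 regions without H3K27ac had an H3K27ac region within 1 kb. A FOXA1 region without reproducible H3K27ac rarely met a peak of a single H3K27ac list either, in 6.82% and 4.66% of cases for the 2 lists.

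FOXA1 regions without H3K27ac lay far from the mark, whereas H3K27ac without FOXA1 lay near FOXA1. The median gap was 21.8 kb from a FOXA1 region without H3K27ac to the nearest H3K27ac region, and 33.9% had one within 10 kb. The median gap was 3.54 kb from an H3K27ac region without FOXA1 to the nearest FOXA1 region, and 76.3% had one within 10 kb. Shared FOXA1 regions had a median width of 449 bp, against 341 bp for those without H3K27ac. H3K27ac regions with FOXA1 had a median width of 1558 bp, against 684 bp for those without.

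Fold enrichment, the authors' own value for the height of a peak over the background, also differed between these classes. Shared FOXA1 regions had a median of 9.81 and 9.56 in the 2 FOXA1 lists, and FOXA1 regions without H3K27ac 6.47 and 6.37. H3K27ac regions with FOXA1 had a median of 7.19 and 7.02 in the 2 H3K27ac lists, and those without FOXA1 4.31 and 4.11. Both lists of each target gave the same order, with little difference between them. The classes overlapped, however: the upper quartile of the FOXA1 regions without H3K27ac was 10.0 and 9.75, above the medians of the shared ones.

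Peaks of each list were then ranked by fold enrichment and split into deciles (1 weakest, 10 strongest), and the share that overlapped the other target was counted in each. From decile 1 to decile 10 of FOXA1 list 1, 36.2%, 34.0%, 32.9%, 36.0%, 39.4%, 42.7%, 48.3%, 55.5%, 65.5% and 81.2% of peaks overlapped H3K27ac. List 2 had 35.0% in decile 1 and 80.9% in decile 10. Decile 10 exceeded decile 1 by 45.4 percentage points ± 0.662 (SD, n = 2 lists). The difference between the 2 lists, 45.0 and 45.9, was small beside it. The share was nearly flat over deciles 1 to 4 and climbed from decile 5 upward.

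For H3K27ac the order broke at the top. In list 1, 9.89% of decile 1, 20.2% of decile 5, 56.7% of decile 8, 69.4% of decile 9 and 63.5% of decile 10 overlapped FOXA1. List 2 gave 11%, 20.7%, 58.2%, 69.2% and 63.4% for the same deciles. Decile 10 exceeded decile 1 by 53.0 points ± 0.85 (SD, n = 2 lists), but decile 10 minus decile 9 was -5.88 points ± 0.00828. Both lists of a target were scored against the same regions of the other target. These SDs, like that for FOXA1, therefore leave out the spread of the other target. Without FOXA1 replicate 1 decile 10 minus decile 9 of H3K27ac was -3.67 points, and without FOXA1 replicate 2 -4.35. With peaks of a -log10 q of at least 5 it was -3.75 points.

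The strongest H3K27ac peaks were largely those at gene ends. Both annotated ends of a protein-coding gene, with 1 kb to each side, are called gene ends here. Of decile 10, 62.1% and 63.5% lay there in the 2 lists, against 17.7% and 18.5% of decile 9 and 3.12% and 3.61% of decile 1. At gene ends 53.5% and 53.6% of decile 10 overlapped FOXA1, against 35.7% and 35.8% of decile 9. Away from gene ends 79.9% and 80.3% of decile 10 overlapped FOXA1, against 76.6% and 76.8% of decile 9. Within either place decile 10 thus had the higher share, and the drop appeared when both were counted together. Decile 10 peaks were also wider, at medians of 2879 and 2854 bp against 1885 and 1891 bp. Split by H3K4me3 instead, 62.4% and 62.5% of decile 10 peaks with that mark overlapped FOXA1, against 62.6% and 62.9% of decile 9. Without H3K4me3 the shares were 92.1% and 91.8%, against 77.4% and 78.0%. What part width or place had in the drop was not tested.

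**Figure D1:**
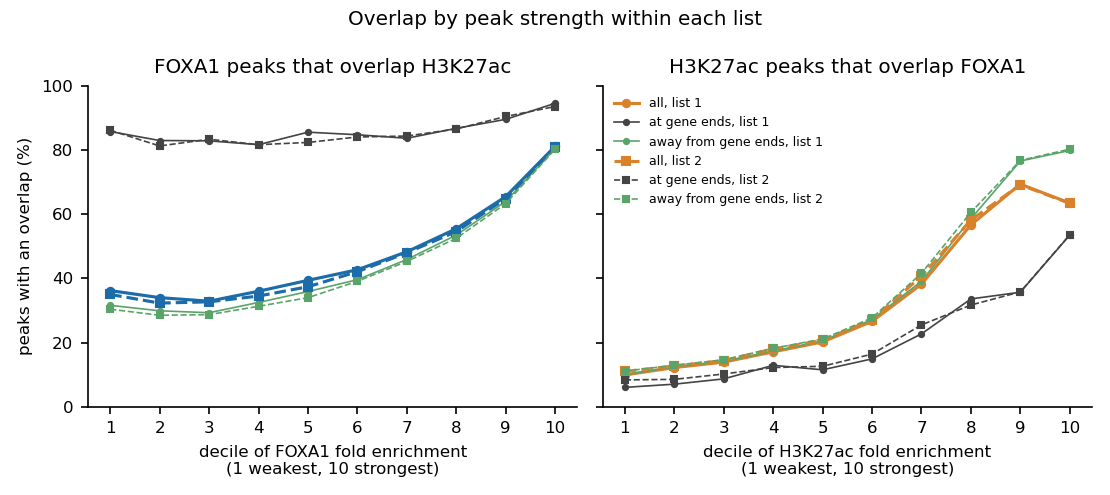
Percentage of FOXA1 peaks that overlap H3K27ac (left) and of H3K27ac peaks that overlap FOXA1 (right), by decile of fold enrichment within each list, for all peaks (thick lines), peaks within 1 kb of a gene end (dark grey) and peaks away from gene ends (green); solid and dashed lines are lists 1 and 2. FOXA1 reaches 81.2% and 80.9% in decile 10, and H3K27ac has 63.5% and 63.4% in decile 10 after 69.4% and 69.2% in decile 9, while both H3K27ac lines within a place are higher in decile 10 than in decile 9.

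Wide H3K27ac regions have more room for a FOXA1 site and are also stronger, so strength was compared again at a given width. Among H3K27ac regions of 2 to 5 kb, split into quintiles of fold enrichment, 67.6%, 82.7%, 83.8%, 60.2% and 57.6% held FOXA1 from weakest to strongest in list 1, and 68.2%, 81.8%, 84.4%, 60.1% and 57.3% in list 2. The share at gene ends over the same quintiles of list 1 was 4.79%, 5.77%, 12.3%, 59.4% and 86.5%. Under 500 bp, where the share at gene ends stayed at 12% or less, the share with FOXA1 increased through the quintiles, 17.5% in the weakest and 30.8% in the strongest of list 1.

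Where FOXA1 and H3K27ac met, the strength of one told little of the strength of the other. Across the 52512 shared regions Spearman's rho between the fold enrichments was -0.0136 to -0.0168 over the 4 pairs of lists. Several FOXA1 regions can share an H3K27ac region, so these points are not independent. In 7600 shared regions whose H3K27ac region was 1 to 2 kb wide with a single FOXA1 site, rho was 0.0508 to 0.0541. Between the 2 lists of a target rho was 0.924 over the FOXA1 regions and 0.884 over the H3K27ac regions.

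Single places show the same looseness. The strongest shared FOXA1 region away from gene ends, at chr3:93470301-93470857 and 402 kb from an end of PROS1, had 83.7 and 75.2 for FOXA1 and 90.3 and 91.5 for H3K27ac. The next, at chr13:81874013-81874751 and 1533 kb from SPRY2, had 83.0 and 75.0 for FOXA1 and 6.23 and 4.6 for H3K27ac. Regions 87.1 kb from TCIM, 5.26 kb from CEPT1 and 259 kb from CA10 completed the 5 strongest, with 14.4 to 23.7 for H3K27ac in the 2 lists. All 5 also carried H3K4me3. The PROS1 region carried Pol II S5P and FGFR1 as well, and the CEPT1 region Pol II S5P. The FOXA1 values of the PROS1 region were the highest in both lists, at the top pileup of 400 fragments. Its 90.3 was the highest value in H3K27ac list 1. No correction for input is visible in the lists, and whether the peaks of so many targets there are an artefact was not tested.

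The strongest FOXA1 regions without H3K27ac were nearly as high. A region of 804 bp at chr1:102190211-102191014, 193 kb from OLFM3, had FOXA1 values of 80.3 and 71.6 and lay 43.6 kb from the nearest H3K27ac region. A region inside LPP, the gene of an adhesion-site protein, had 79.1 and 70.3 and lay 5.14 kb from H3K27ac. Regions inside HERC6, 30.2 kb from ATP6V1G3 and 126 kb from NUFIP1 followed, with 77.2 to 78.4 in list 1 and 68.4 to 69.2 in list 2. None of these 5 regions carried H3K4me3, Pol II S5P or FGFR1. In decile 10 of FOXA1 regions, 1779 of 10423 (17.1%) had no H3K27ac, at a median of 83.9 kb from the nearest gene end.

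The strongest H3K27ac regions without FOXA1 were at gene ends, with H3K4me3, Pol II S5P and FGFR1 at each of the first 5. SERPINH1, the gene of a collagen chaperone, had H3K27ac values of 76.6 and 81.1 over 8187 bp, with the nearest FOXA1 region 0.412 kb away. TONSL, a replication-repair gene, had 75.4 and 75.5, and the nearest FOXA1 region was 12.9 kb away. CYC1, which encodes cytochrome c1 of the respiratory chain, RUFY1 and CHRAC1 followed with 66.3 to 69.2 in list 1 and 70.7 to 73.3 in list 2. TONSL, CYC1 and CHRAC1 lie on chromosome 8. The ranking has no correction for copy number, and its part was not tested. In decile 10 of H3K27ac regions, 3314 of 9372 (35.4%) had no FOXA1. Of the 6058 with FOXA1, 69.2% lay at gene ends, against 84.0% of those without.

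FOXA1 sites per H3K27ac region were counted next. A FOXA1 region counts once for each H3K27ac region it touches, and 6750 FOXA1 regions touched more than 1. No FOXA1 region lay in 50089 H3K27ac regions, 1 in 34353, 2 in 6282 and 3 in 1654. The mean was 0.633 per region and 1.36 per region with at least 1. The mean was 0.42 without H3K27ac replicate 2, when each of that target's remaining peaks counts as a region. The 9257 H3K27ac regions with at least 2 sites (9.88%) held 42.1% of the sites counted, and the 752 with at least 5 (0.803%) held 8.68%.

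The count went with width. FOXA1 was found in 23.0% of H3K27ac regions under 500 bp, 35.6% of those of 500 to 1000 bp, 50.4% of 1 to 2 kb, 70.4% of 2 to 5 kb, 92.7% of 5 to 10 kb and 99.4% of the 1589 wider ones. Sites per kb were 0.606 in the narrowest class and 0.287 in the widest, in a count that takes a site whole even where a narrow region meets only its edge. The share of bases covered by FOXA1 ran the other way, 9.19% in the narrowest and 17.5% in the widest. At equal width, H3K27ac at gene ends held FOXA1 less often: in 53.8% (52.5 to 55.1) of regions of 2 to 5 kb at gene ends, against 78.9% (78.1 to 79.6) of those away from them. Over 10 kb the shares were 99.5% and 99.4%.

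**Figure D2:**
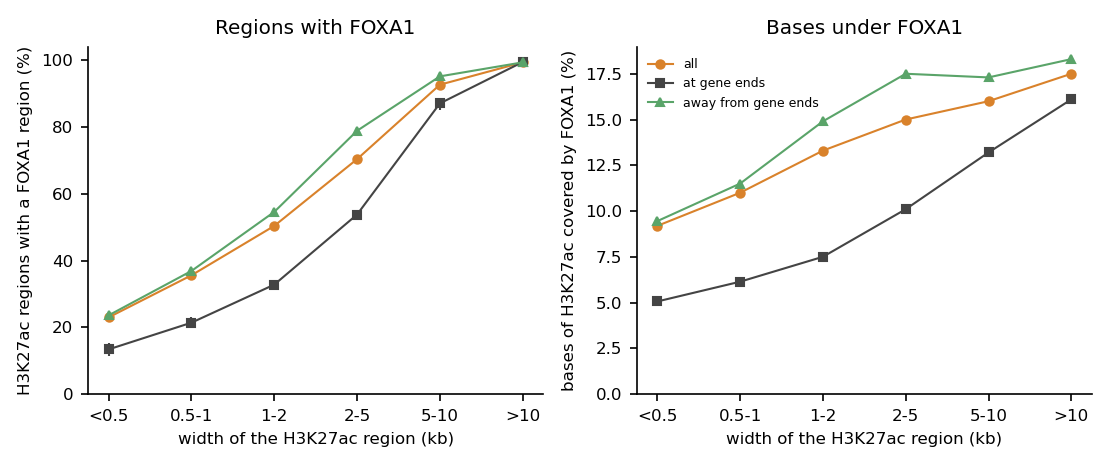
Percentage of H3K27ac regions that hold a FOXA1 region, with Wilson 95% intervals (left), and percentage of their bases covered by FOXA1 (right), by width of the H3K27ac region in kb, for all regions, those within 1 kb of a gene end and those away. The share of regions climbs from 23.0% to 99.4% over all regions, and the line for gene ends lies below the line for regions away from them up to 10 kb.

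The H3K27ac regions with most FOXA1 sites were long domains, several of them far from protein-coding genes, the only genes measured to. The first, at chr8:40334810-40425787, was 91.0 kb long, 105 kb from an end of ZMAT4, and held 40 FOXA1 regions (47 and 48 peaks in the 2 FOXA1 lists). The second, at chr7:118632642-118703867, held 35 FOXA1 regions in 71.2 kb and lay 390 kb from ANKRD7. A domain of 79.0 kb inside BCAR3, the gene of an adaptor protein linked to antioestrogen resistance, held 29. A domain over CFAP276 and ELAPOR1 held 25, one at 929 kb from GATA3 held 23, and one at 99.2 kb from MYC held 22. In these 6 domains the density was 0.286 to 0.491 FOXA1 regions per kb, against 0.287 in all H3K27ac regions over 10 kb. They were chosen for their number of sites, so no test was made of it. Their highest H3K27ac fold enrichment was 26.8 to 71.9 in list 1 and 33.9 to 78.6 in list 2.

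Within H3K27ac the FOXA1 summit, the point of highest signal, lay beside the H3K27ac summit and not on it. The median distance between a FOXA1 summit under H3K27ac and the nearest H3K27ac summit was 367 to 382 bp over the 4 pairs of lists, and 4.3% to 4.65% of FOXA1 summits were within 100 bp. FOXA1 summits of the 2 lists were 17 bp apart in the median, with 93.8% and 94.4% within 100 bp, so the gap exceeds the error of FOXA1 summits. H3K27ac summits of the 2 lists were 86 and 89 bp apart in the median. The density of H3K27ac summits around FOXA1 summits was 0.179 to 0.191 per kb in the first 50 bp and highest at 250 to 300 bp, at 1.19 to 1.26 per kb. The highest bin was 6.47 to 6.71 times the first.

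The gap was clearer at strong FOXA1 sites. Of the FOXA1 peaks under H3K27ac in decile 10 of their list, 0.917% to 1.02% had an H3K27ac summit within 100 bp, against 7.17% to 8.36% in decile 1. It was found in both places: 3.61% to 3.92% of FOXA1 summits at gene ends and 4.39% to 4.77% of those away had an H3K27ac summit within 100 bp. Inside H3K27ac regions of 2 to 5 kb that held 1 site, 64.8% and 64.9% of FOXA1 summits of the 2 lists fell into the central 33.3% of the length. That class had 8875 regions with 1 site, and 92.3% and 92.2% of them held a FOXA1 summit. Of the 4536 regions under 500 bp with 1 site, 18.4% and 19.3% held a summit, so in most of them FOXA1 only reached in from the side. Of the 837 and 874 summits inside these narrow regions, 18.2% and 18.1% fell into the central 33.3% and 35.6% and 38.3% into the outer 20% of the length. FOXA1 summits thus lay in wide H3K27ac regions, mostly in their centre, and were outside most narrow ones.

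**Figure D3:**
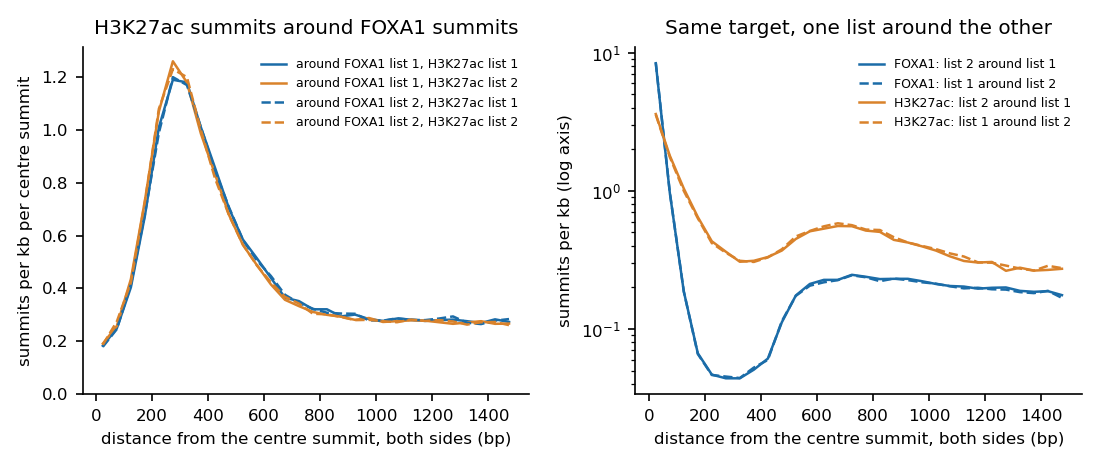
Left, H3K27ac summits per kb around FOXA1 summits under H3K27ac against distance in bp (50 bp bins, both sides added), for the 4 pairs of lists; right, the same for one list around the other of the same target, on a log axis. H3K27ac summits are sparse at the FOXA1 summit, 0.179 to 0.191 per kb, and densest at 250 to 300 bp, while summits of the same target are densest in the first bin.

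Distance to gene ends separated FOXA1 from H3K27ac. Within 1 kb of a gene end lay 6.71% and 6.67% of the peaks of the 2 FOXA1 lists and 11.6% and 12.1% of the peaks of the 2 H3K27ac lists. The means were 6.69% ± 0.0282 for FOXA1 and 11.9% ± 0.302 for H3K27ac (SD, n = 2 each), a difference of -5.17 points that exceeds the spread between lists. The exact permutation test over the 4 lists, two-sided, gave p = 0.333, the smallest that 2 against 2 allow. With peaks of a -log10 q of at least 5 the difference was -10.2 points. By reproducible regions the shares were 6.73% of FOXA1 and 16.6% of H3K27ac.

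Most FOXA1 regions at gene ends were marked. Shared FOXA1 regions lay at gene ends in 11.6% of cases, at a median of 26.0 kb from the nearest end, and FOXA1 regions without H3K27ac in 1.82%, at a median of 64.9 kb. Over the 4 pairings of single lists these shares were 11.7% to 12.2% and 1.82% to 1.88%. With growing distance from a gene end, H3K27ac covered 86.6% of FOXA1 regions within 1 kb, 61.0% at 1 to 10 kb, 53.0% at 10 to 50 kb, 47.1% at 50 to 100 kb and 35.7% beyond 100 kb. The FOXA1 strength did not follow: the median fold enrichment in list 1 was 6.88 within 1 kb and 7.51 to 7.72 in the other classes.

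Distance and strength both went with the mark. Beyond 50 kb, 24.9% of the weakest quintile and 69.1% of the strongest quintile of FOXA1 regions overlapped H3K27ac. At 1 to 50 kb the shares were 42.6% and 80.5%, and within 1 kb 86.2% and 92.5%. Strength thus went with larger differences far from gene ends than at them, where the weakest FOXA1 regions were already marked.

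H3K27ac regions showed a shallow minimum in place of that decline. FOXA1 lay in 44.9% of H3K27ac regions within 1 kb of a gene end, 37.7% at 1 to 10 kb, 45.4% at 10 to 50 kb, 50.1% at 50 to 100 kb and 56.6% beyond 100 kb. The median distance to a gene end was 27.2 kb for H3K27ac regions with FOXA1 and 16.8 kb for those without. H3K27ac was strongest at gene ends, with a median fold enrichment of 22.8 and 23.7 in the 2 lists within 1 kb and 4.79 and 4.6 in each class beyond.

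**Figure D4:**
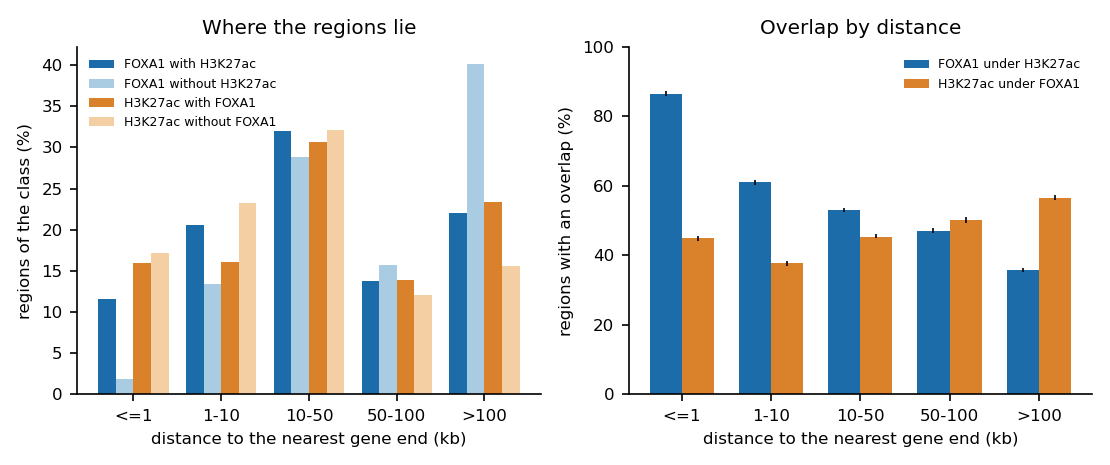
Left, percentage of each class of regions by distance to the nearest gene end in kb; right, percentage of FOXA1 regions under H3K27ac and of H3K27ac regions under FOXA1 by the same distance, with Wilson 95% intervals. FOXA1 regions without H3K27ac are rare within 1 kb (1.82%), and the share of FOXA1 under H3K27ac declines with distance, 86.6% within 1 kb and 35.7% beyond 100 kb.

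Other marks of the same cells divided along the same line. H3K4me3, a mark of promoters, overlapped 40.6% of shared FOXA1 regions and 1.87% of FOXA1 regions without H3K27ac. Pol II S5P, found where transcription begins, overlapped 7.62% and 0.25%, and FGFR1 4.05% and 0.112%. None of these 3 was found at 59.0% of shared FOXA1 regions, against 97.9% of those without H3K27ac. Away from gene ends H3K4me3 still overlapped 34.7% of shared FOXA1 regions. H3K27ac regions away from gene ends held FOXA1 in 70.2% of cases where H3K4me3 was present and 40.9% where it was not, but those with H3K4me3 were wider, at a median of 2137 bp against 720 bp. At gene ends 46.9% of H3K27ac regions with H3K4me3 held FOXA1.

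Genes were then ranked by shared regions, that is FOXA1 regions under H3K27ac, within the gene or 10 kb to either side. Of 19970 protein-coding genes, 11922 (59.7%) had at least 1, 2719 had at least 5 and 812 at least 10, and the median gene had 1. The number went with the length of the gene: Spearman's rho across genes was 0.363, and genes that neighbour each other share regions.

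The gene with most shared regions was RAD51B, whose product acts in homologous recombination, with 83 in a span of 883 kb (88 FOXA1 and 126 H3K27ac regions). BCAR3 had 73 in 306 kb, with 74 FOXA1 regions and 53 H3K27ac regions, so 1 of its FOXA1 regions was unmarked. FTO had 72 in 438 kb, VAV3, which encodes a guanine nucleotide exchange factor, 69 in 414 kb, and TRAPPC9, a vesicle trafficking gene, 65 in 751 kb. INPP4B, which encodes a phosphoinositide phosphatase, had 63, ZMAT4 62 and TRPS1, the gene of a GATA-type repressor of luminal cells, 56. CNTNAP2, a neuronal adhesion gene, had 55 in 2324 kb and ERBB4, a receptor tyrosine kinase gene of the EGFR family, 52 in 1183 kb. CNTNAP2 had 153 FOXA1 regions and ERBB4 102, so many of theirs had no H3K27ac.

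Per 100 kb, small genes came first. RHOB, the gene of a small GTPase, had 44.7 shared regions per 100 kb (10 in 22.4 kb), SOWAHA 42.6, IRF2BP2, which encodes a transcriptional corepressor, 42.5, RNF139, the gene of a ubiquitin ligase, 41.5, EFNA1, the gene of an ephrin ligand, 40.7, and RBM15 40.3. The histone genes H2BC14, H2AC14 and H3C10 had 39.1 each and H2AC7 39.0. H2BC14, H2AC14 and H3C10 lie in the same cluster, and the strongest shared region is the same for all of them. All 11 FOXA1 regions of IRF2BP2 fell into a single H3K27ac region of 19.6 kb, and all 11 of EFNA1 into one of 31.1 kb that held 13. The median gene had 1.59 per 100 kb.

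The 9 gene lists were read against all genes. Besides the 59.7% with a shared region, FOXA1 lay within 1 kb of an end of 32.3% of all protein-coding genes, H3K27ac of 67.5% and a shared region of 28.6%. Of genes with H3K27ac at an end, 45.0% also had FOXA1 at an end, and of the others 5.93%. The lists were chosen with results of these data known, and their counts are descriptions.

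The FOXA1 gene itself was embedded in the mark. It had 9 FOXA1 regions, all of them inside a single H3K27ac region of 23.7 kb (chr14:37583319-37606984), and the strongest had a FOXA1 fold enrichment of 31.1 and 27.9. Of the 12 genes of the FOXA family and other forkhead factors, 9 had a shared region, 4 had FOXA1 and 10 had H3K27ac at a gene end. Their median span was 107 kb, against 44.2 kb for all genes, of which 59.7% had a shared region. FOXP1 had 15, FOXJ3 13, FOXN3 6 and FOXO3 5 shared regions. FOXA2, whose name stands in the FOXA1 lists, had neither a FOXA1 nor an H3K27ac region in its span, and FOXA3 had 1 FOXA1 region.

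Luminal factors and markers were rich in shared regions. Of the 30, 27 had at least 1, with a median of 7.5 per gene and 14.3 per 100 kb, against 1 and 1.59 for all genes, at median spans of 40.6 kb and 44.2 kb. FOXA1 lay at an end of 19 and H3K27ac at an end of 30. GRHL2, which encodes an epithelial transcription factor, had 39 shared regions, and all 39 of its FOXA1 regions were marked. ESR1 had 28 of 41, PRLR, the prolactin receptor gene, 25 of 27, ANKRD30A 22 of 25 and GATA3 6 of 6. ESR1 and GATA3 carried H3K27ac and no FOXA1 at a gene end. EPCAM, CLDN7 and CITED1 had no shared region.

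Oestrogen receptor targets had a shared region nearly as often as the luminal list, in these same cells, all deprived of estradiol. Of the 25, 22 had one, with a median of 6 per gene and 7.07 per 100 kb, 15 had FOXA1 and 23 had H3K27ac at an end. GREB1, an oestrogen receptor cofactor and target, had 16 of 17 FOXA1 regions under H3K27ac, ABCC5, a transporter gene, 16 of 16, MAPT 14 of 14, KDM4B, a histone demethylase gene, 13 of 13 and CA12, a carbonic anhydrase gene, 12 of 12. TFF1, the trefoil factor gene and a classical target, had 4 of 4. Its strongest shared region, at chr21:42366376-42367022, reaches its gene end and had 21.7 and 19.5 for FOXA1 and 10.8 and 11.9 for H3K27ac. AREG, NRIP1 and SERPINA1 had none.

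Genes that write, read or erase H3K27 acetylation were marked at an end in 17 of 17 cases, against 67.5% of all genes. FOXA1 lay at an end of 7 (41.2%), against 45.0% of all genes with H3K27ac at an end. Shared regions were found at 15 (88.2%, against 59.7% of all genes), among them NCOA2 (27), NCOA3 (11) and BRD2 (10). These genes are long, however, with a median span of 107 kb against 44.2 kb for all genes. CREBBP had 6 and EP300 2, and HDAC2 and SIRT1 had none.

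Lists of other lineages were nearer to all genes or below. Shared regions were found at 8 of 15 basal and myoepithelial markers and 10 of 15 mesenchymal markers. They were found at 7 of 14 haematopoietic and 5 of 13 hepatic and neuronal markers. Of these lists only the mesenchymal one, at 66.7%, exceeded the 59.7% of all genes. The medians were 1, 1, 0.5 and 0 in the same order, against 1 for all genes. FOXA1 lay at an end of 3, 3, 5 and 4 of the markers, against 32.3% of all genes. The haematopoietic list (35.7%) was slightly above that share, and the hepatic and neuronal list (30.8%) close to it. H3K27ac lay at an end of 8, 9, 4 and 4, below the 67.5% of all genes in each list. TP63, a basal transcription factor gene, stood apart with 25 shared of 30 FOXA1 regions, and S100A4, a calcium-binding protein gene, had 8 of 8. The hepatic genes APOB, ALB, FGB and TTR had 3, 4, 2 and 1 FOXA1 regions and no H3K27ac region in their spans. APOA1 had 1 FOXA1 region and 2 H3K27ac regions, not shared, and CYP3A4 had neither. In liver, FOXA factors are known to act on such genes. Thus 4 of 13 hepatic and neuronal markers had FOXA1 without H3K27ac, against 6.1% of all genes.

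Cytosolic ribosomal protein genes, active in all cells, had H3K27ac at an end in 25 of 25 cases and FOXA1 at an end in 15. Shared regions were found at 16 (64.0%), close to the 59.7% of all genes, with a median of 2 against 1. RPS3 (9), RPL10A (5) and RPL8 (5) had most, and RPL11, RPLP0, RPS2, RPL19 and RPS16 among others had none. At the RPS3 end the FOXA1 fold enrichment was 9.18 and 10.7 in the 2 lists, under an H3K27ac region of 74.7 and 74.5.

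**Figure D5:**
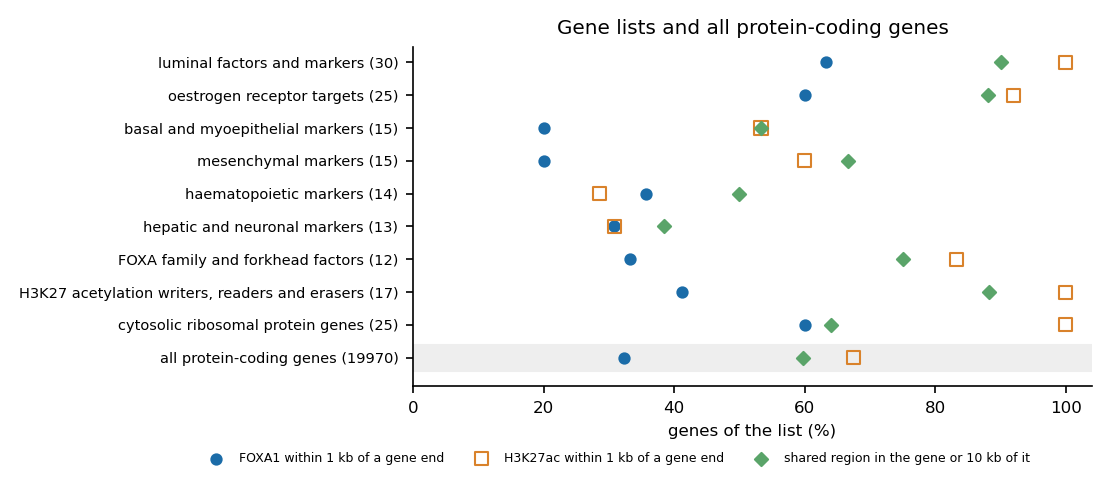
Percentage of the genes of each list, and of all 19970 protein-coding genes (shaded), with FOXA1 within 1 kb of a gene end (circles), with H3K27ac within 1 kb of a gene end (open squares) and with a shared region within the gene or 10 kb of it (diamonds); list sizes are in parentheses. Luminal factors and oestrogen receptor targets have a shared region at 27 of 30 and 22 of 25 genes, against 59.7% of all genes.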

How the data were processed

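Per the labels' protocols, libraries were made from precipitated, sonicated CAMA1 chromatin. The submitters' processing notes name the build hg38 and the tools MACS2, Bowtie2, Picard and SAMtools, whose versions and parameters are not given in the sources used here. The authors deposited a peak list for each library. A deposited row holds a position, its summit, the fold enrichment as a linear ratio, and p and q as -log10 values. Every deposited fold enrichment in the 4 lists lay on a regular grid (tolerance 2e-05). Each -log10 p-value under 100, the range checked, was that of a Poisson count, so peaks were called against a single background per library. No correction for input or local copy number is visible, which matters in a line with amplified segments. The highest pileup was 400 fragments in both FOXA1 lists and 376 and 384 in the H3K27ac lists. Lists were ranked within themselves and never pooled on fold enrichment.

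Rows outside chromosomes 1 to 22 and X (0.0227% to 0.0533%) were left out. Overlaps, distances, deciles and Wilson 95% intervals were computed with Python 3.11.15, numpy 2.4.6, pandas 2.3.3 and scipy 1.17.1, and the interval steps were tested on simulated data. Gene ends and spans came from RefSeq's gene table (GRCh38.p14), without exons or strand, and promoters with strand from RefSeq's promoter table, which matched 15811 of 19970 genes. The 166 symbols of the 9 gene lists all matched. Named genes were the 10 with most shared regions, the 10 densest with at least 5, up to 5 of each list, FOXA1, ESR1, GATA3, TFF1 and GREB1, and those nearest the 5 strongest regions of 3 classes; other list members are named as the count's exceptions. Members, lists and rules were chosen with earlier results of these data known. Tests used 2 libraries per target, and the depth behind each share is the number of regions given beside it. Alternatives were a stricter threshold, each list left out, other overlaps, region definitions, list lengths, windows and gene rules, and removal of the 8p11 and 11q13 spans. Inputs and the transfected lists were not used here. A few members of the gene lists are counted but not reported here by name.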

Additional observations from a re-analysis of the deposited data

How the results depend on the processing

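With peaks of a -log10 q of at least 5, the difference at gene ends was -10.2 points, 46.1% of FOXA1 regions lay under H3K27ac and 54.5% of H3K27ac regions under FOXA1. The mean was then 0.759 sites per H3K27ac region, decile 10 minus decile 1 48.0 points for FOXA1 and 41.0 for H3K27ac, decile 10 minus decile 9 of H3K27ac -3.75, the ratio of summit densities 9.23 and the genes with a shared region 11057. With at least 50% of the FOXA1 region inside, the same measures were 43.4%, 38.7%, 0.543, 38.4, 58.4, -3.95 and 5.45 (the shares, the mean, the deciles and the ratio). With regions cut to bases covered by both lists they were 46.6%, 32.7%, 0.428, 46.2, 54.0, -5.8 and 6.37. With lists of equal length they were 48.5%, 50.8%, 0.7, 46.6, 47.9, -6.3 and 7.53. Joining H3K27ac regions closer than 1 kb gave 57.9% of them under FOXA1 and 0.947 sites each. Without the 8p11 and 11q13 spans decile 10 minus decile 9 was -6.12. The difference at gene ends was -5.48 points with windows of 500 bp, -6.48 with 3 kb and -3.5 for gene starts taken by strand. Genes with a shared region numbered 8944 by gene body and 11415 by nearest end.

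Leaving out 1 list gave -5.38 to -4.96 points at gene ends, 46.3% to 52.7% of FOXA1 and 32.8% to 49.2% of H3K27ac regions under the other, and 0.42 to 0.7 sites. The deciles then gave 45.0 to 46.1 for FOXA1, 52.4 to 57.0 for H3K27ac and -5.89 to -3.67 for decile 10 minus decile 9 of H3K27ac, the ratio of summit densities was 5.44 to 6.64, and 11997 to 12496 genes had a shared region. No signed difference changed sign in these alternatives. The order of the 2 shares did turn, to more H3K27ac than FOXA1 regions under the other, at a -log10 q of 5, with equal lists, without FOXA1 replicate 1 (46.3% of FOXA1 and 49.2% of H3K27ac) and without FOXA1 replicate 2 (47.2% and 48.6%), and the cause of the shifts was not tested. With the replicate block the difference at gene ends was -5.17 points (exact sign-flip permutation p = 0.5, the smallest 2 pairs allow). Whether equal replicate numbers pair the libraries is not stated. Replicate differences of FOXA1 and H3K27ac had r = -0.00683 across 52512 shared regions. That value cannot decide it, since noise within each library could hide a pairing. The alternatives for decile 10 minus decile 9 and for the summit densities were chosen after seeing the data. Weak peaks were recovered least: 46.3% and 40.9% of decile 1 of the FOXA1 lists and 35.4% and 50.2% of the H3K27ac lists were found in the other list.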

Other observations

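The share of FOXA1 regions under H3K27ac differed between chromosomes. It was highest on chromosome 19 (79.0% of 2026 FOXA1 regions), 22 (74.1% of 1404), 16 (66.2% of 2672) and 17 (66.1% of 2998), and lowest on X (38.6% of 2524), 13 (38.9% of 3803) and 4 (39.5% of 7316). The share of H3K27ac regions under FOXA1 ran in a different order, with 35.3% on chromosome 19, 35.8% on 22 and 53.5% on 4.

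In the 2 segments often amplified in luminal breast cancer a higher share of FOXA1 regions was marked than the 50.4% over all. The 8p11 span of 1.41 Mb held 225 FOXA1 regions, 173 of them (76.9%) under H3K27ac, at 160 FOXA1 and 160 H3K27ac regions per Mb, and 45.1% of its H3K27ac regions held FOXA1. The 11q13 span of 2.2 Mb held 184 FOXA1 regions, 138 of them (75.0%) under H3K27ac, at 83.5 FOXA1 and 126 H3K27ac regions per Mb. Of its H3K27ac regions 25.9% held FOXA1, below the 46.5% over all. Copy number and density of binding cannot be told apart there, since peaks were called against a single background.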
